A study of Homo sapiens with 6 samples.

Results

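Interferon-response genes were followed through the cap immunoprecipitates of MOLT-4 cells, with IFI27 and the IFIT genes examined one by one. The group comprised 39 genes out of 36328 gene names on the array. They were chosen by name, but with earlier results of these data known. All 39 had a probe of that name (51 probes in all), and the brightest probe, by its mean over all 6 arrays, stood for a gene. MOLT-4 is an established leukaemia line of the T lineage. It was transfected with an empty vector (mock, 3 arrays) or with a vector for NUDT16, a nudix-family enzyme that removes the cap from RNA (3 arrays). From both groups total RNA was extracted and transcripts carrying an m3G or m7G cap were immunoprecipitated, and the eluate was hybridised to a 1-colour Agilent array. The comparison asks which transcripts are more or less abundant in the capped fraction when NUDT16 is supplied. Input RNA is not part of the comparison, so a change in transcript level and a change in capping cannot be told apart. A single cell line was used, and the labels do not say whether replicates came from separate cultures, so p-values measure only the spread between these samples, which may be technical.

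Interferons are secreted proteins that signal through paired receptors and the kinases JAK1 and TYK2 to transcription factors that include STAT2 and IRF9. These bind the interferon-stimulated response element in the promoters of a large set of genes, many of which block a step of virus growth. Some of the products read the 5′ end of RNA itself: IFIT1 binds RNA with an incomplete cap, IFIT5 binds RNA with a 5′ triphosphate, and IFIT2 and IFIT3 form complexes with IFIT1. IFI27 and IFI6 encode small hydrophobic proteins of one family, and IFI27 is widely used as a marker of interferon exposure in blood cells.

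The promoters of these genes are shown first because the response element is what the genes share in sequence. The core searched was GAAA, any 2 bases, then GAAA, or on the other strand TTTC, any 2 bases, then TTTC. Overlapping matches were each counted. Both strands were searched in RefSeq promoter windows of build GRCh38.p14, each from 250 bases before to 50 bases after an annotated start site. Of the 39 genes, 30 were in that table, with 42 windows. A match was found in 24 of these 42 windows (57.1%), against 1255 of 35116 windows of all genes (3.57%). By gene, 20 of the 30 had a match and 14 had 2 or more in one window, against 4.38% and 0.311% of all 27305 genes. In the lines below the bases upstream of the start are printed 5′ to 3′ on the gene's strand, with every base of a core match in capitals. IFI27 is given with all 250 upstream bases (chr14:94110486-94110735, plus strand). The others show the matches with flanks of up to 12 bases: IFI6 (chr1:27672264-27672360, minus strand), IFIT1 (chr10:89392495-89392541, plus strand), IFIT3 (chr10:89327829-89327896, plus strand), IFIT5 (chr10:89414511-89414567, plus strand), ISG15 (chr1:1013372-1013411, plus strand) and IFITM3 (chr11:320874-320924, minus strand).
IFI27: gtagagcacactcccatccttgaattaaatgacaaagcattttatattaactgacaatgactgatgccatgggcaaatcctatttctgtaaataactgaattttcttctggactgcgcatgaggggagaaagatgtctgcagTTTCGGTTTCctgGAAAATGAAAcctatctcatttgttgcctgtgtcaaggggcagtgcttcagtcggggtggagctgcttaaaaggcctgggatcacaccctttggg
IFI6: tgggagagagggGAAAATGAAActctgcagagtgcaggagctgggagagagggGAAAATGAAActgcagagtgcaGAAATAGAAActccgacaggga
IFIT1: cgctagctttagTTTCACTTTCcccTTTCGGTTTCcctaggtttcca
IFIT3: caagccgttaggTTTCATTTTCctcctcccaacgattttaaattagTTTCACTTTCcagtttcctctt
IFIT5: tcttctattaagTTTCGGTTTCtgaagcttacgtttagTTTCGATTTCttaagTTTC
ISG15: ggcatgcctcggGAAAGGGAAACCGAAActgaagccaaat
IFITM3: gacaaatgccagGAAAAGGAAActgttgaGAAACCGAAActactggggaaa
IFI27 carries 1 match on each strand, 3 bases apart, while the matches of IFIT1, IFIT3 and IFIT5 read TTTC on the gene's strand. In ISG15 the matches overlap and share 4 bases. The last 4 bases of the IFIT5 line begin a further match that runs across the start site.

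The gamma-activated sequence, a promoter element of the response to interferon gamma, was searched as TTCNNNGAA, which is its own complement. It occurred in windows of 10 of the 30 genes, against 9.38% of all genes. Windows of 1 gene can overlap, and counted once each these were 11 sites, of which 4 overlapped a match of the response element, among them that of IFI27. IRF1, a transcription factor known for such a site, had 1 match and no match of the response element (chr5:132490877-132490909, minus strand, capitals marking the match).
IRF1: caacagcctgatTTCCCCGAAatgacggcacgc

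**Figure D1:**
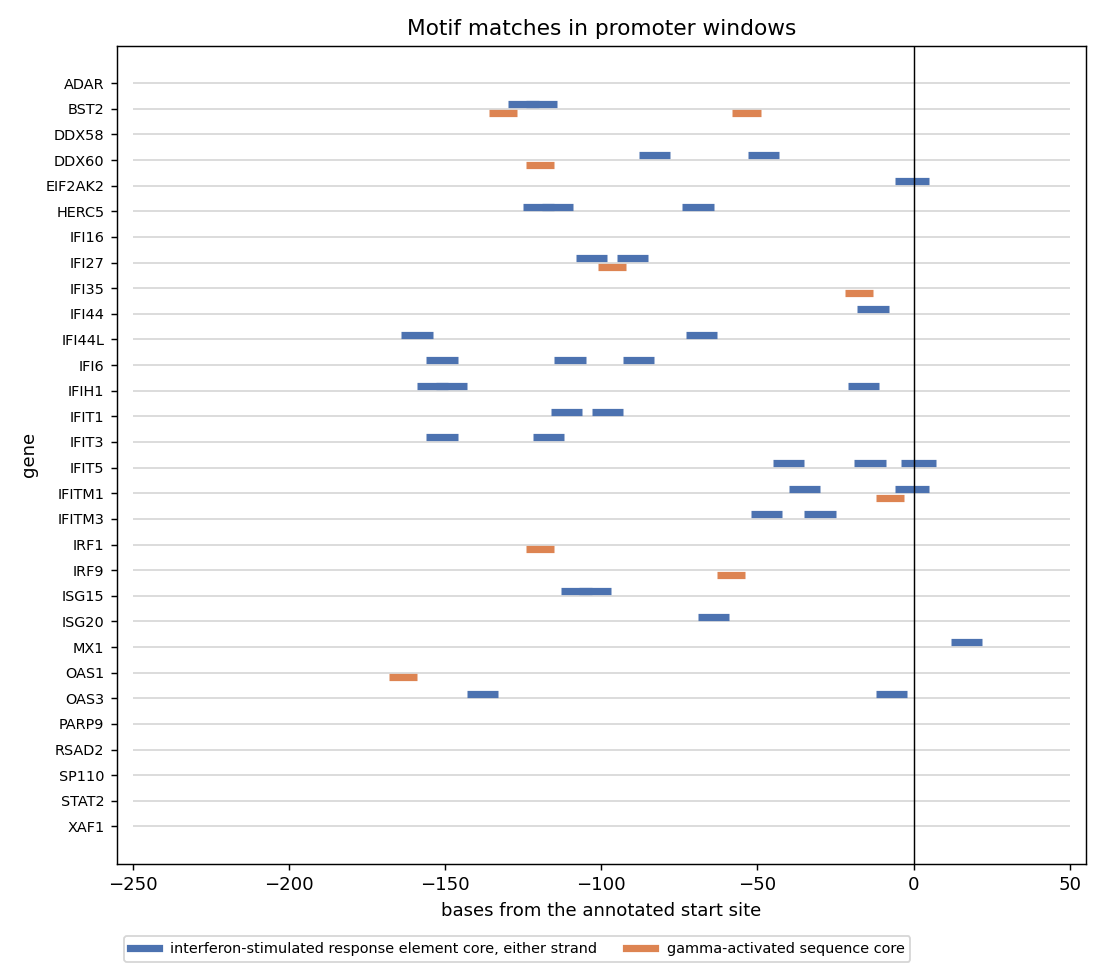
Positions of core matches of the response element (blue, either strand) and of the gamma-activated sequence (orange) for the 30 genes in the promoter table, in bases from the annotated start site (x axis), with 1 window per gene, the one farthest upstream. In these windows 18 genes have a response-element match and 8 a gamma-activated match, and the IFI27 matches lie between 108 and 86 bases before the start.

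Signals below are log2 processed intensities relative to the 75th percentile, on that array, of the 6582 probes well above background on all 6 arrays. Zero is therefore a bright level, and a difference of 1 is 2-fold. Between 39.3% and 51.1% of 58717 spots were well above background on mock arrays, and 42.3%, 14.6% and 52.0% on NUDT16 replicates 1, 2 and 3. NUDT16 replicate 2 stood apart, with only 12 of the 39 interferon genes well above background there. On each of the other 5 arrays 34 to 37 of them were. On NUDT16 replicate 2, 17 of the interferon genes carry the surrogate value that the scanner software puts in for dim spots, between -5.82 and -5.53. Such values are no more than an upper bound, so each pair's difference is given beside that of the groups. T-lineage markers were present, with 14 of 14 well above background on 4 arrays, 13 on mock replicate 2 and 9 on NUDT16 replicate 2. Of 14 markers of B cells, myeloid cells, fibroblasts and epithelium, 1 to 6 were, and the defining genes MS4A1, PAX5, CSF1R, MPO, COL1A1, COL1A2, DCN and EPCAM stayed below that level on all 6 arrays. So did the 2 NUDT16 probes, which therefore do not check the labels. Whether the vector holds their sequence is not given in the sources used here. A probe for its pseudogene NUDT16P1 (A_21_P0012400) stood at least 31.7-fold above mock with NUDT16 (limma adjusted p 0.00155, 3 arrays a group). It was the 1 probe called of 17765 tested (0.00563%).

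IFI27 had the highest difference of the interferon genes tested, and it was higher with NUDT16 in the pairs of replicates 1 and 3, where both arrays measured it. Its probe A_24_P270460 lies at chromosome 14, positions 94582967 to 94583026 (hg19). On mock replicates 1, 2 and 3 it read -4.95, -5.92 and -7.00, from unscaled intensities of 242, 44.7 and 37.0. On the NUDT16 arrays it read -4.06, -4.25 and -5.76, from 464, 11.7 and 128. Replicate 1 was the high array and replicate 3 the low one in both groups, so the groups overlapped. The probe was well above background on all mock arrays and on NUDT16 replicates 1 and 3. Its value on NUDT16 replicate 2 lay below the lowest signal well above background there (-3.52) and is an upper bound, so the direction of pair 2 is not determined. The difference was 0.89 in pair 1 and 1.24 in pair 3, and at the bound it was 1.66 in pair 2. Mock arrays averaged -5.95 ± 1.02 (SD, n = 3), and NUDT16 arrays averaged -4.69 ± 0.93 (SD, n = 3). The difference of 1.27 (SE 0.73), with the bound taken as a value, did not pass the threshold (limma adjusted p 0.999). Blocking on the replicate number gave an SE of 0.32, and the limma adjusted p was 0.467.

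Without replicate 2, in a paired fit on replicates 1 and 3, IFI27 rose and was the only interferon gene called. There the difference was 1.17 (SE 0.27, limma adjusted p 0.0292 over 22387 probes). That fit called 398 probes (1.78%), 77 higher (0.344%) and 321 lower (1.43%), and has 1 residual degree of freedom per probe, so its spread is largely borrowed from other probes. Of the 37 interferon genes it tested, 1 was called higher and 0 lower, with 20 below 0 (61.2% of all probes were) and 5 at an unadjusted p under 0.05 (17.8% of all probes were). Beside IFI27 these were OAS1 at 0.68, IRF7 at 0.66, IFI35 at 0.62 and IFIT3 at -0.85, with limma adjusted p values of 0.213, 0.206, 0.233 and 0.157. OAS1 entered that fit through the NUDT16 arrays alone and IFIT3 through the mock arrays alone. Each had to be high in that group, so neither value supports a direction.

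IFI6, the family partner of IFI27, did not follow it in all pairs. On mock replicates 1, 2 and 3 it read -1.59, -2.43 and -2.52, and on NUDT16 replicates -1.07, -1.31 and -2.78. It was well above background on all 6 arrays. The pair differences were 0.52, 1.12 and -0.26, and that of the groups was 0.46 (SE 0.66, limma adjusted p 0.999), turning to -0.53 when arrays were not scaled and to -0.16 with a median shift.

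All 4 IFIT genes read lower on average with NUDT16, the reverse of IFI27, and none was called. Their probes lie within about 120 kilobases of one another on chromosome 10 (hg19): IFIT2 A_23_P24004 at 91068397 to 91068456, IFIT3 A_33_P3283611 at 91099762 to 91099821, IFIT1 A_23_P52266 at 91163438 to 91163497 and IFIT5 A_24_P30194 at 91179559 to 91179618. None of the 4 was well above background on NUDT16 replicate 2, and 3 of them had a surrogate value there. They entered the test through the mock arrays alone, so they had to be high there. Of all tested probes not well above background on all 6 arrays, 66.3% were below 0. The shared sign therefore supports no direction.

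IFIT1 read -5.02, -3.49 and -3.74 on mock replicates 1, 2 and 3 and -5.61, -5.75 and -4.03 on NUDT16 replicates. Mock replicate 1 lay among the NUDT16 values, so the groups overlapped. The pair differences were -0.59, -2.26 and -0.29, the middle one resting on a NUDT16 value at background. The group difference was -1.05 (SE 0.70, limma adjusted p 0.999).

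IFIT2 read -4.97, -4.84 and -4.20 in mock and -6.05, -5.59 and -4.46 in NUDT16 arrays. It was lower in every pair, by -1.08, -0.75 and -0.26 (group difference -0.70, SE 0.64, limma adjusted p 0.999). A second IFIT2 probe, A_24_P304071, gave a difference of -1.35.

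IFIT3 was the dimmest and most variable of the 4 on mock arrays, at -7.00, -6.02 and -4.61, and at -8.70, -5.70 and -4.82 with NUDT16. It was well above background on NUDT16 replicate 3 alone of that group. The pair differences were -1.70, 0.32 and -0.21. In pair 2 the NUDT16 value is a surrogate, an upper bound above the mock value, so that pair gives no direction. The group difference of -0.53 (SE 0.97, limma adjusted p 0.999) turned to 0.62 without NUDT16 replicate 1 and to 0.10 without mock replicate 3. All 3 of these differences take the surrogate as a value.

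IFIT5 read -5.12, -4.84 and -3.88 in mock and -6.16, -5.62 and -4.01 in NUDT16 arrays. It was lower in every pair, by -1.04, -0.79 and -0.13, with a group difference of -0.65 (SE 0.71, limma adjusted p 0.999). Across the 4 genes the pair of replicate 3 gave differences from -0.29 to -0.13, against -1.70 to -0.59 in the pair of replicate 1. The medians over all probes tested were -0.06 in the pair of replicate 3 and -0.36 in that of replicate 1. The contrast between the pairs was not tested.

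**Figure D2:**
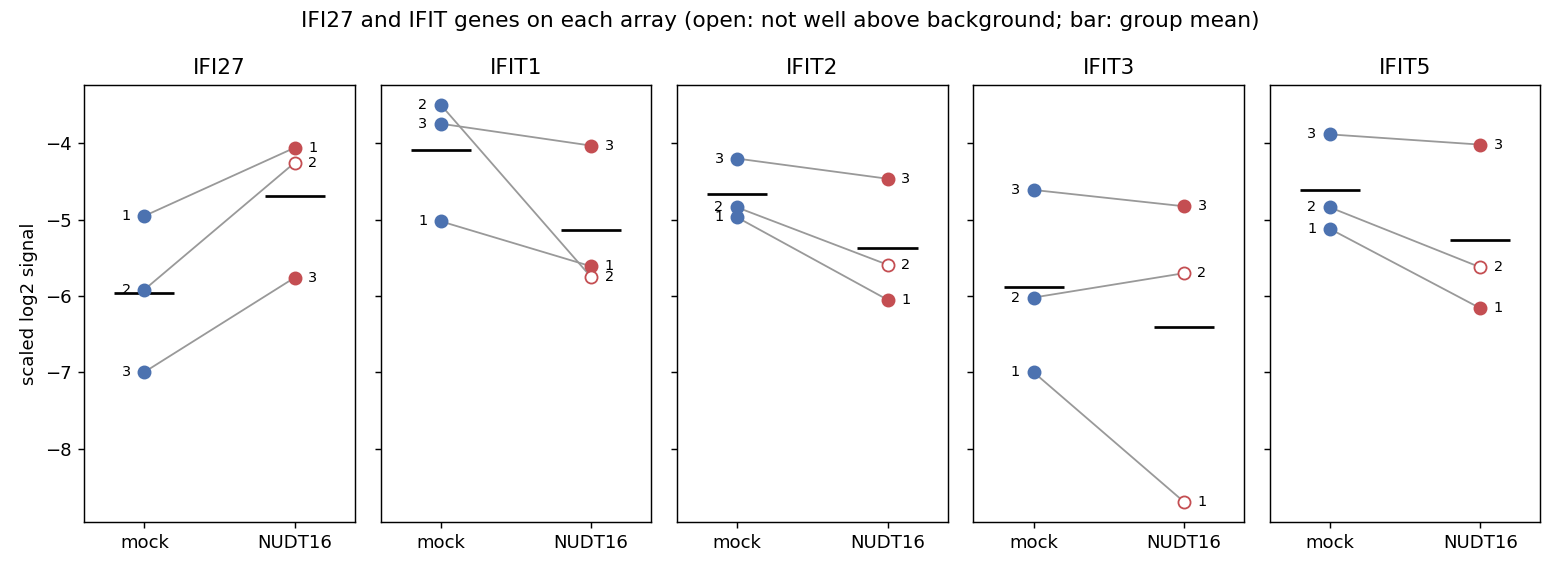
Scaled log2 signal (y axis) of IFI27, IFIT1, IFIT2, IFIT3 and IFIT5 on the 3 mock and 3 NUDT16 arrays, with replicate numbers beside the points, lines joining same-numbered arrays, bars at the group means and open points for values not well above background. IFI27 goes up from -4.95 to -4.06 and from -7.00 to -5.76 in the pairs with filled points at both ends, while IFIT1, IFIT2 and IFIT5 go down along all 3.

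Of the 39 genes, 34 were tested (37.7% of all gene names, by the same brightest-probe rule), since a probe had to be well above background on all 3 arrays of a group. Across the list, 0 of 34 genes tested were called in either direction by limma, against 1 of 17765 probes on the array (0.00563%), and 0 had an unadjusted p under 0.05 (0.045% of all probes). With the replicate block limma called 0 and put 3 at an unadjusted p under 0.05 (9.76% of all probes). IFI27 and IFI35 were higher (0.816% of all probes were, at that p) and EIF2AK2 lower (8.94%). The median difference was -0.36, against -0.11 over all probes tested, with 15 genes above 0 and 19 below (56.8% of all probes were below). Standard errors ran from 0.58 to 0.97. By the brightest probe, 0 of the 34 genes tested had groups without overlap (0.31% of all probes were higher and 0.281% lower without overlap). By pair the list's median was -0.38, -0.12 and -0.06, against -0.36, 0.09 and -0.06 over all probes tested.

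The sign of a difference went with detection on NUDT16 replicate 2. Of the 12 interferon genes well above background on all 6 arrays (15.6% of all gene names were), 10 were above 0 and 2 below (median 0.45, and 0.16 over all such probes, of which 40.7% were below 0). Of the 22 tested with fewer arrays, 5 were above 0 and 17 below, and 66.3% of all such probes were below 0. These 22 entered the test through the mock arrays alone, so they had to be high there, and the 12 had to be high enough on NUDT16 replicate 2. Neither count therefore supports a direction. Leaving NUDT16 replicate 2 out moved the list's median to 0.16, against -0.04 over all probes. The split also depended on scaling: with a median shift 3 genes were above 0 and 31 below, and without scaling 1 and 33, as all probes moved to medians of -0.72 and -1.10. Measured from that array-wide median, 15 were above and 19 below under both settings. That holds by construction, since these settings only move each array by a constant. With normexp and quantile normalization, with quantile normalization and with the authors' value table, 14 were above their array-wide median and 20 below.

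**Figure D3:**
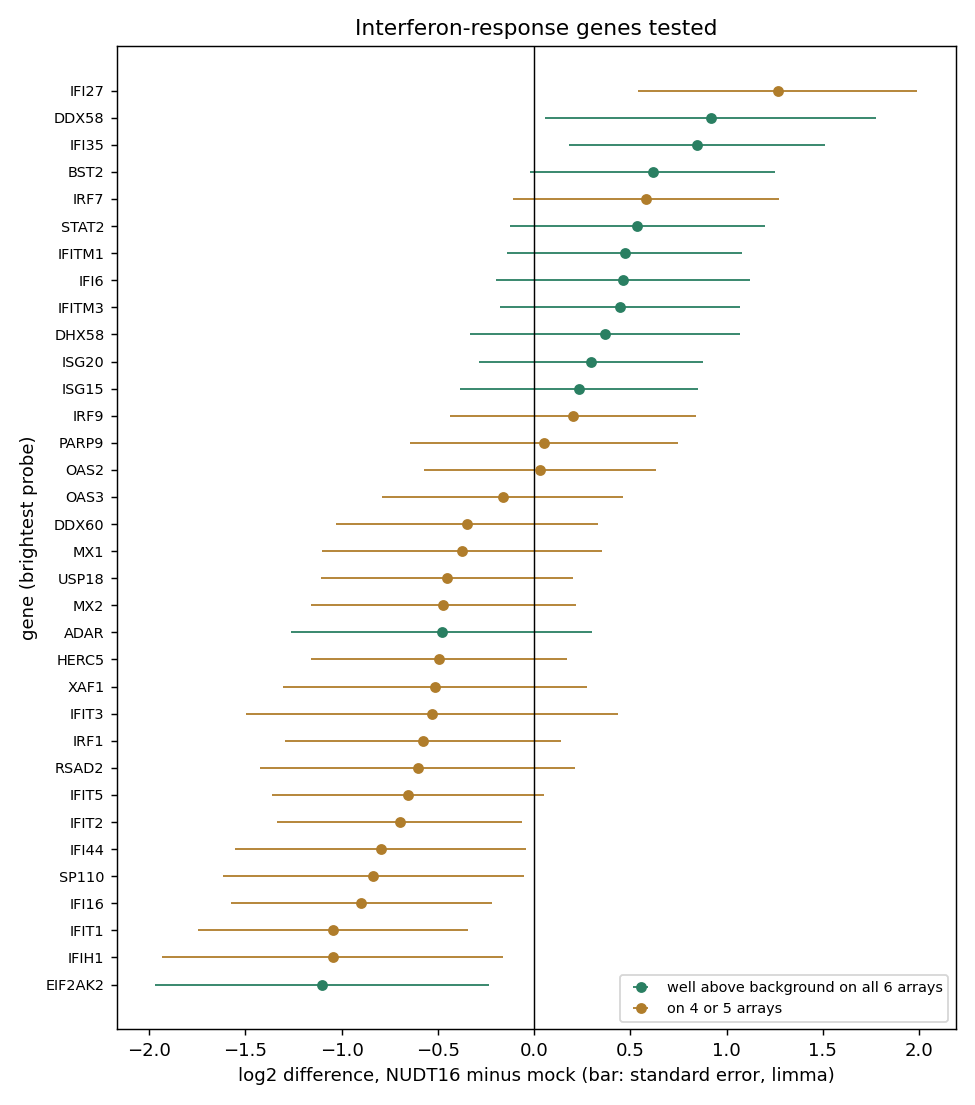
Log2 difference between NUDT16 and mock arrays (x axis, bar for the limma standard error) for the 34 interferon genes tested (y axis), with genes well above background on all 6 arrays in green and on 4 or 5 arrays in brown. Values run from -1.10 for EIF2AK2 to 1.27 for IFI27, and 10 of the 12 green points, which had to be detected on NUDT16 replicate 2, lie above 0.

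Of 5 sensors of viral nucleic acid, 2 were above 0 and 3 below, with 0 called. DDX58 (now RIGI), which detects RNA with a 5′ triphosphate, had one of the highest differences of the list, 0.92 (SE 0.86, limma adjusted p 0.999), and it came from 1 array. It read -4.97, -5.37 and -4.10 in mock and -5.43, -1.85 and -4.41 in NUDT16 arrays. NUDT16 replicate 2 was alone in being high, the pair differences being -0.46, 3.51 and -0.30, and without that array the difference was -0.08. IFIH1, the sensor of long double-stranded RNA, read -5.31, -3.54 and -2.89 in mock and -6.03, -5.76 and -3.10 in NUDT16 arrays. It was lower in every pair, by -0.72, -2.22 and -0.20 (group difference -1.05, SE 0.88, limma adjusted p 0.999). The size of the middle difference rests on a surrogate value on NUDT16 replicate 2. DHX58, a regulator of both sensors, was higher in every pair by 0.33 to 0.39. IFI16, a DNA sensor, was at -0.90 and DDX60, a helicase that assists DDX58, at -0.35. IFIH1, IFI16 and DDX60 were not well above background on NUDT16 replicate 2. The paired fit on replicates 1 and 3 put them at -0.36, -0.44 and -0.16.

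Enzymes that act on double-stranded RNA gave the lowest value of the list. EIF2AK2 (PKR, the kinase that halts translation initiation) read -2.27, -0.99 and 0.06 in mock and -3.14, -3.04 and -0.31 with NUDT16. All 6 arrays showed it well above background. It was lower in every pair, by -0.88, -2.05 and -0.37. Its groups overlapped, and the difference of -1.10 (SE 0.87) was not called (limma adjusted p 0.999, and 0.467 with the replicate block, with an unadjusted p of 0.0306 there). A second EIF2AK2 probe, A_33_P3224858, gave -0.57. ADAR, which edits adenosine to inosine in such RNA, was lower in every pair by -0.20 to -0.83 (group difference -0.48, SE 0.78). The oligoadenylate synthetases, which activate RNase L, included OAS2 at 0.03 and OAS3 at -0.16, while OAS1 and OASL were not tested, with OASL well above background on 0 arrays. A dimmer OAS2 probe, A_23_P204087, differed from the brightest one. It read -8.64, -9.13 and -7.91 in mock and -6.62, -5.74 and -7.75 in NUDT16 arrays. The values of replicate 2 in both groups are surrogates, so whether its groups overlap is not determined. It was well above background on NUDT16 replicates 1 and 3 alone and was not tested over all arrays. In the paired fit on replicates 1 and 3 it was at 1.19 (limma adjusted p 0.0818), against -0.29 for the brightest probe. It entered that fit through the NUDT16 arrays alone, so it had to be high there. Its differences in pairs 1 and 3 were 2.02 and 0.16.

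Antiviral effectors lay on both sides of 0. BST2, which tethers budding virions, was higher in every pair by 0.40, 1.11 and 0.34 (group difference 0.62, SE 0.64), and its second probe gave 0.68. IFITM1 and IFITM3, which hinder virus entry, were also higher in every pair, by 0.09 to 0.74 and by 0.16 to 0.63. ISG20, an RNA exonuclease, was higher in every pair by 0.14 to 0.43. All 6 arrays showed these 4 well above background. They were not called (limma adjusted p 0.999 each), and read below 0 without scaling and with a median shift. The dynamin-like GTPases MX1 and MX2 were at -0.37 and -0.47, the second MX2 probe at 0.53, and RSAD2 (viperin, which makes a chain-terminating nucleotide) at -0.60. None of these probes was well above background on NUDT16 replicate 2. In the paired fit on replicates 1 and 3 they were at 0.016, 0.0008, 0.0007 and -0.25. TRIM22 and IFITM2 were well above background on 2 arrays of each group and were not tested.

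ISG15, a ubiquitin-like protein attached to other proteins after interferon, read 0.43, 0.61 and -0.52 in mock and 0.80, 0.61 and -0.19 in NUDT16 arrays. Its pair differences of 0.37, 0.00 and 0.32 were smaller than the spread within each group. HERC5, the ligase that attaches ISG15, was at -0.49 and USP18, the protease that removes it, at -0.45. Neither HERC5 nor USP18 was well above background on NUDT16 replicate 2. The paired fit on replicates 1 and 3 put them at -0.34 and 0.01.

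Among the transcription factors, IRF7, the amplifier of interferon transcription, was higher by 0.55 and 0.57 in pairs 1 and 3. It read -3.26, -4.54 and -4.93 in mock and -2.71, -3.92 and -4.35 in NUDT16 arrays, so the spread between replicates exceeded the difference (0.58, SE 0.69, limma adjusted p 0.999). Its value on NUDT16 replicate 2 is an upper bound above that of mock replicate 2, so pair 2 gives no direction. STAT2 was at 0.54, with pair differences of -0.27, 1.45 and 0.43, IRF9 at 0.20 and IRF1 at -0.58. IRF9 and IRF1 were not well above background on NUDT16 replicate 2. The paired fit on replicates 1 and 3 put them at 0.13 and -0.04.

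Of the remaining induced genes, IFI35 had the third highest difference of the list. It read -2.93, -4.68 and -4.26 in mock and -2.50, -3.18 and -3.64 with NUDT16. All 6 arrays showed it well above background. It was higher in every pair, by 0.42 and 0.61 in pairs 1 and 3 and by more in pair 2, but its groups overlapped (group difference 0.84, SE 0.66, limma adjusted p 0.999). Without scaling the difference was -0.15. IFI44 and SP110 were at -0.80 and -0.84, XAF1 at -0.51 and PARP9 at 0.05. None of these was well above background on NUDT16 replicate 2. The paired fit on replicates 1 and 3 put them at -0.08, -0.23, -0.55 and -0.23. XAF1 entered that fit through the mock arrays alone, so it had to be high there. IFI44L was well above background on 0 arrays. With OASL it was 1 of 2 such genes on the list (42% of all gene names).

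The pairs of replicates 1 and 3 hold no array in common and leave out the array that stood apart. Of the 37 interferon genes tested in these 4 arrays, 10 were higher in both pairs, 17 lower in both and 10 opposite. Over all 22387 probes the shares were 19.9%, 48.2% and 31.9%, so the list's shares of 27.0%, 45.9% and 27.0% lay near those of the array. In all 3 pairs 9 of the 34 genes tested were higher (15.9% of all probes) and 12 lower (27.5%). The first group holds IFI35, BST2, IFITM1, IFITM3, DHX58, ISG20 and ISG15, and also IFI27 and IRF7, whose pair 2 counts only with the bound taken as a value. Of the 12 lower genes, EIF2AK2 and ADAR alone were well above background on all 6 arrays. The others entered the test through the mock arrays alone, so they had to be high there.

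**Figure D4:**
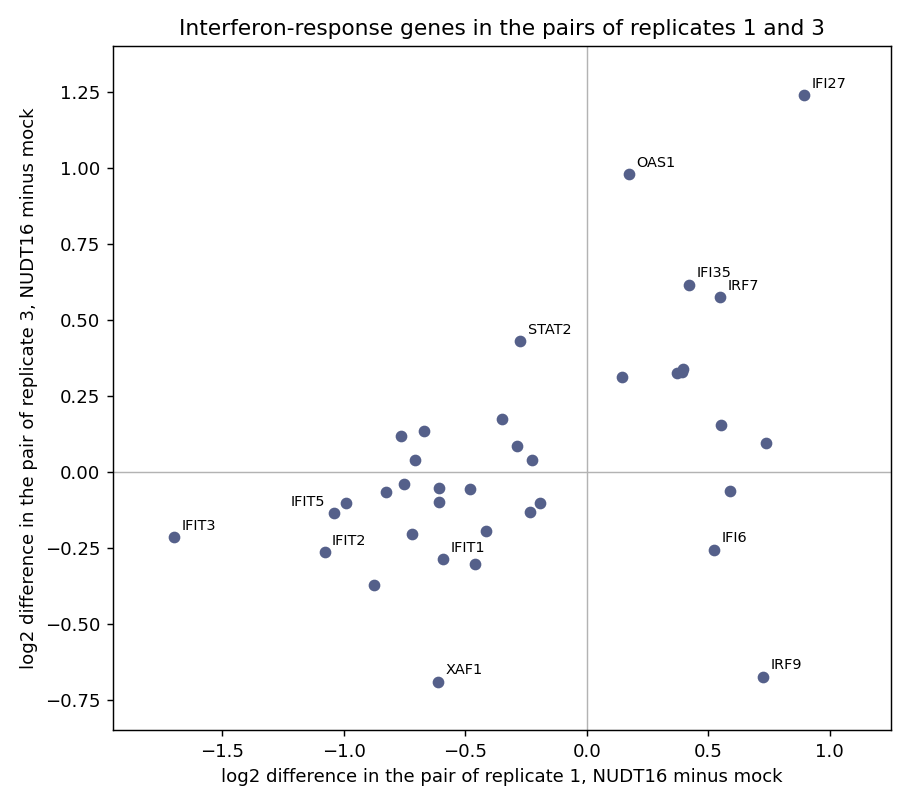
Log2 difference between NUDT16 and mock in the pair of replicate 3 (y axis) against that in the pair of replicate 1 (x axis) for 37 interferon genes, each point a gene. IFI27 lies farthest to the upper right at 0.89 and 1.24, and the 4 IFIT genes lie at the lower left.

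A response-element match did not separate genes by sign. Of 19 tested genes with a match, 8 were above 0 and 11 below, and of 9 without one in the table, 4 and 5. The medians were -0.35 and -0.48.

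Of 71 other genes of the interferon pathway, 70 had a probe and 47 were tested, with 0 called higher and 0 lower by limma (0.00563% of all probes were called) and a median of -0.06. At an unadjusted p under 0.05 there were 0 (0.045% of all probes), and 4 with the replicate block (9.76%). The paired fit on replicates 1 and 3 tested 55 and called 1 (1.78% of all probes it tested), lower (1.43%). It was IL28RA, a receptor chain for interferon lambda, at -1.20 (limma adjusted p 0.027). IL28RA was well above background on mock replicates 1 and 3 and on 0 NUDT16 arrays. It entered that fit through the mock arrays alone, so it had to be high there, and the call supports no direction. Of the ligands, IFNB1, IFNG, IFNA2, IFNK and IL29 were not well above background on any array, and IL28A alone was tested. The interferon receptor chains IFNAR1 and IFNAR2 were at -0.29 and -0.38, and all 5 receptor and kinase genes tested over all arrays were below 0 (56.8% of all probes were, and 66.3% of those not detected on all 6 arrays, as 4 of these 5 were not). The adaptors of sensing MAVS and TMEM173 (STING) were at 0.16 and 0.53, both higher in every pair. IKBKE, a kinase that activates IRF3 and IRF7, was at 0.47 (SE 0.57, limma adjusted p 0.999). Its value on NUDT16 replicate 2 is a surrogate, an upper bound, so whether its groups overlap is not determined. With the surrogate taken as a value, it was the 1 gene of the 47 tested without overlap (0.31% of all probes were higher without overlap). The inhibitors SOCS1 and PTPN6 were at 0.38 and 0.58. Of 28 further induced genes tested, 11 were above 0 and 17 below, between -1.02 for EPSTI1 and 0.78 for PARP10.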

How the data were processed

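Cap-immunoprecipitated RNA from 3 mock and 3 NUDT16 samples was hybridised to 1-colour (Cy3) arrays of design 039494, read with Feature Extraction 10.7.3.1, probe positions on hg19, per the file headers. Processed intensity, per the file headers, had background subtracted and spatial trends removed on each array, with nothing done between arrays. The log2 values of the authors' own table, whose making is not given in the sources used here, served as an alternative (deposited values).

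Control and outlier spots were left out, and 13 probes without a usable spot were dropped. Log2 processed intensity was shifted by each array's 75th percentile over probes well above background on all 6 arrays, since that over all probes fell among background spots on NUDT16 replicate 2. A probe was tested if well above background on each of 3 arrays in either group, by limma (version 3.58.1, R version 4.3.3; two-sided, Benjamini-Hochberg at 0.05, no block). Depth does not apply to arrays, whose number limits the precision.

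Each slide, scanned on its own occasion, held 1 mock and 1 NUDT16 array of the same number. Deviations from group means correlated at 0.84, 0.39 and 0.77 for numbers 1, 2 and 3, so the numbers pair the arrays. Slide, scan and number are 1 block. The main limma fit left this block out, so its standard errors include the spread between slides. It put 0.045% of all probes at an unadjusted p under 0.05, against 9.76% in limma with the block. Each of these fits called 1 probe.

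The genes shown were the members of the list, with IFI27 and the IFIT genes one by one, those called or without overlap on 6 arrays, and the 3 highest and 3 lowest. Others follow by role. The members, lists and settings were chosen with earlier results of these data known. The procedure was tested on simulated data. Gene names are the files', 37 of 39 accessions matched a current RefSeq table (GRCh38.p14), and promoter windows are from RefSeq. An hg19 annotation was not used here, so exon or untranslated-region positions are not given.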

Additional observations from a re-analysis of the deposited data

How the results depend on the processing

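The count of interferon genes called was 0 in 17 of 18 other settings and 1 in the paired fit on replicates 1 and 3 (replicate block), where it was IFI27. The replicate block on all arrays changed no call. The array-wide count of 1 probe became 0 without scaling, with normexp and quantile normalization, with the authors' value table, without the filter and with the filter on all 6 arrays (1, 10, 10, 160 and 2 probes at an unadjusted p under 0.05 in limma), and 398 in the paired fit. Leaving out one array gave 0 to 18 probes, with 0 without mock replicate 2 and 18 without NUDT16 replicate 1. The list's median of -0.36 was -0.98 with a median shift, -1.36 without scaling and 0.45 with the filter on all 6 arrays, which left 12 genes, and lay between -0.81 (without NUDT16 replicate 3) and 0.16 (without NUDT16 replicate 2) with one array left out. IFI27 stayed above 0 in all 17 other settings that gave it a value, from 0.27 without scaling to 1.80 without NUDT16 replicate 3, and 1.07 without NUDT16 replicate 2, with limma adjusted p values from 0.0292 to 0.99997. IFIT1, IFIT2 and IFIT5 stayed below 0 in all 17. DDX58 was reversed without scaling (-0.079), in the paired fit on replicates 1 and 3 (-0.28) and without NUDT16 replicate 2 (-0.077), and with one array left out lay between -0.077 and 1.69. IFI35 was reversed without scaling (-0.15), and IFIT3 without mock replicate 3 (0.10) and NUDT16 replicate 1 (0.62), and ran from -1.32 to 0.62 over the fits that drop an array. The cause of these moves was not tested beyond the common shift of all probes. The filter on all 6 arrays gives no value for IFI27, IFIH1 or the IFIT genes by construction. Signal near background on NUDT16 replicate 2 limits every value of pair 2.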
